A study of Mus musculus with 14 samples.

Results

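The genes of heme metabolism and hemoglobin described here, 10 of the 24421 gene entries of the study's count table, were measured in the hippocampus of mice. They were chosen by gene name, with earlier results of the same genotype comparison known. They cover heme synthesis (Alas1, Alas2, Fech), a mitochondrial transporter tied to heme synthesis (Abcb10), heme breakdown (Hmox1, Hmox2, Blvrb), the heme-regulated kinase of translation (Eif2ak1) and alpha hemoglobin (Hba-a1, Hba-a2). RNA of hippocampus by the labels (dentate gyrus by the results text of the study) was sequenced from 7 male mice labelled LPAR2-/- and 7 male WT mice, 1 library per mouse, all untreated and of the strain 129.C57Bl6. LPAR2 is a receptor for lysophosphatidic acid. The study asked how loss or block of LPAR2 affects cognition and hippocampal excitability, with RNA sequencing beside slice recordings and behavioral tests. By the labels the mice were 10 to 12 weeks old, but the deposited design text has them middle-aged to aged, so the age is not known. Knockout and WT mice came from separate colonies, and the methods describe the WT background as a C57BL/6 and 129/SvJ mix, so that the deletion, alleles linked to it and other differences between the colonies cannot be told apart.

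Heme is made in mitochondria and cytosol. An aminolevulinate synthase (ALAS1 in all tissues, ALAS2 in erythroid cells) starts the pathway, ALAD joins 2 aminolevulinate molecules, and ferrochelatase (FECH) inserts iron at its end. Heme oxygenases (HMOX1, inducible, and HMOX2, constitutive and abundant in brain) open the ring to biliverdin, which biliverdin reductases turn into bilirubin. HRI, the product of Eif2ak1, phosphorylates the translation factor eIF2alpha when heme is scarce. Red cell precursors make most of the body's heme for hemoglobin, so that RNA of Alas2 and of the globins in brain is commonly read as a sign of blood in the vessels.

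Between 15434620 and 23258949 reads per library were counted on genes. Of all entries, 14897 passed a filter on low counts, and 1009 of these (6.77%) passed an adjusted p of 0.05 in edgeR's quasi-likelihood test, 494 higher and 515 lower in mice labelled LPAR2-/- (616 and 377 with upper quartile scaling). Counts of Lpar2 itself went against the label. They were 8.20, 9.47 and 12.3 reads per 1000000 (CPM; lowest, median, highest) in the libraries labelled LPAR2-/- and 1.51, 2.73 and 3.23 CPM in WT libraries. Counts over the whole gene do not test whether part of an exon is deleted, and the mice are called by their label throughout. Markers of hippocampal neurons were counted in every library (sum of 8 genes 875 to 1140 CPM in mice labelled LPAR2-/-, 953 to 1170 CPM in WT mice). Some of these genes varied widely between mice, which the sum hides. In WT mice Spink8 had 4 to 113 counts and Fibcd1 measured 25.6 to 154 CPM. The sum is therefore no measure of how alike the dissections were.

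Of the 10 members, 8 passed the filter on low counts. Hba-a1 and Hba-a2 did not, because they were listed at 0 in all 14 libraries. Among these 8, 1 was called (Abcb10, lower), against 6.77% of all genes tested, and the groups did not overlap for 1 (Abcb10 again), against 1.77% of all genes. The members' log2 fold changes, LPAR2-/- minus WT, were above 0 for 5 and below 0 for 3, with a median of 0.07, beside a median of 0.0029 over all genes tested. Since the members were picked with this contrast known, these values describe them and support nothing further. In bulk tissue, fewer cells of a type and less RNA per cell cannot be told apart.

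**Figure D1:**
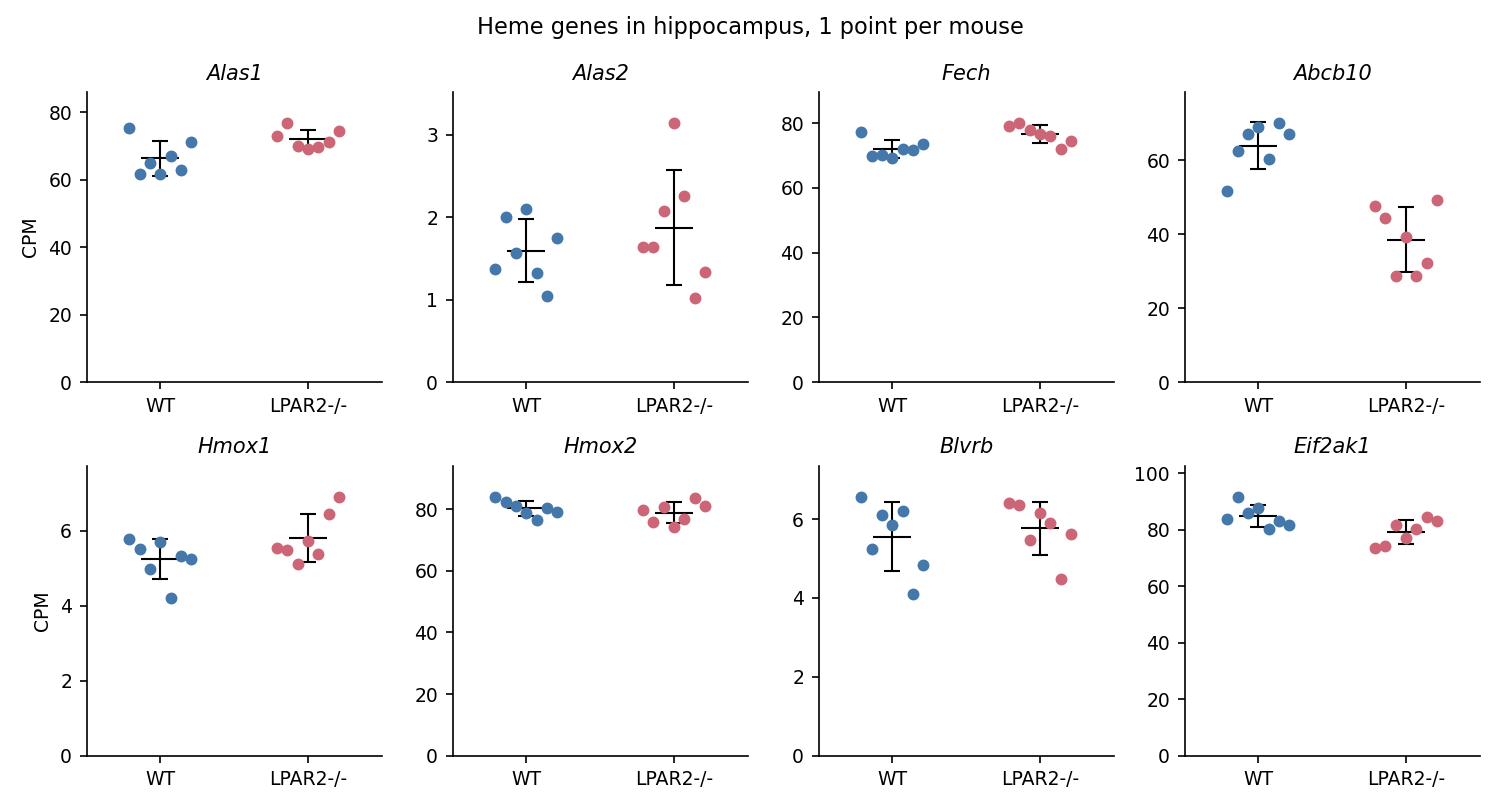
CPM of the 8 counted members in each of 7 WT and 7 LPAR2-/- mice (1 point per mouse, vertical axes from 0, bars are mean and SD). Abcb10 is the only panel in which the groups do not overlap, at 28.6 to 49.2 CPM against 51.7 to 70.0 CPM.

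Sequences of 2 kinds are shown: stretches at gene starts (before Abcb10, the only called member, before the erythroid genes Alas2 and Hba-a2, and just inside Alas1, which holds the same letters as Abcb10), and the 2 copies of alpha globin, which the counting could not separate. No value reported here was tested against these letters. They come from the RefSeq annotation of GRCm38.p6 (mm10), in which 8 of the 10 members had a window (Hmox1 and Fech are named only). Letters in capitals mark matches to CGCATGCG, the core letters of the NRF1 consensus, or to AGATAA or TGATAA, letters bound by erythroid GATA factors, searched on both strands. The first is its own reverse complement, and it does not overlap the others here. The letters were chosen after these windows had been read, and a match is a description of letters only.
Abcb10 (chr8:123983123-123983372, minus strand, 250 bases before the start): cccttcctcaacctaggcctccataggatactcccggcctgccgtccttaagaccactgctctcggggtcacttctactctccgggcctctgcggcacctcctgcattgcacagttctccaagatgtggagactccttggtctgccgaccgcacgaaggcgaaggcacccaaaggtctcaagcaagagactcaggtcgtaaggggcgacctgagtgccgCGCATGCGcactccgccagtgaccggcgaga
Alas1 (chr9:106247905-106247934, minus strand, 30 bases around the match): gcacccaaggCGCATGCGcggcggtcactc
Alas2 (chrX:150547167-150547374, plus strand, upstream): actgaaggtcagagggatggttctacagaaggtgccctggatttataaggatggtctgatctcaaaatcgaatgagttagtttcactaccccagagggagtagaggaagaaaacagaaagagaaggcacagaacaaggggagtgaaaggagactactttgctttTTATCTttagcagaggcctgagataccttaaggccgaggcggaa
Hba-a2 (chr11:32296292-32296488, plus strand, upstream): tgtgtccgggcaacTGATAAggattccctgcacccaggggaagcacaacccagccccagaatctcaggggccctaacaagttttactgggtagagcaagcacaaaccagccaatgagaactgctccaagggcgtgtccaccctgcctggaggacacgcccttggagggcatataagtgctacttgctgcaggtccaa
CGCATGCG stood in 615 of 32851 windows of 300 bases (1.87%), among them those of Abcb10 (first base at -31 from the start) and Alas1 (first base at 31, counted from 1 at the start used by the count table, and at -194 from a second RefSeq start). AGATAA or TGATAA stood in 18.6% of windows, among them those of Alas2 (-86), Hba-a1 (-183) and Hba-a2 (-186).

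The 2 alpha globin genes are nearly identical copies. Their upstream windows held the same letters over all 297 bases that could be aligned, with a shift of 3 bases. Their coding sequences in GENCODE M21, 429 bases each, differed by 1 base, C381T, counted from 1 at the first base of the start codon with the base of Hba-a1 first. Bases 336 to 426 of the coding sequence are given with this base in capitals.
Hba-a1: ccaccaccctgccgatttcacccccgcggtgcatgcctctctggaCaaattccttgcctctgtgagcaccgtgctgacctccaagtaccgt
Hba-a2: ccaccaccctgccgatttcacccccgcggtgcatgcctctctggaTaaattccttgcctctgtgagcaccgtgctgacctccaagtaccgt

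The counts of 0 for both genes have to be read with how the table was made. In its annotation, the entry Hba-a1 holds 3 exons at chr11:32283672-32284486 and 3 more at chr11:32296489-32297303, and the entry Hba-a2 holds 3 exons at each of nearly the same places (chr11:32283675-32284493 and chr11:32296492-32297310). Of 1118 exon bases of Hba-a1, 1112 (99.5%) also belong to Hba-a2, which has 14 bases of its own. By the options in the file header, a read that lies on exons of 2 entries, or that aligns in several places, is counted for neither. Adult beta globin met the same rule, since Hbb-bs and Hbb-b1 share 630 bases, and Hbb-bt and Hbb-b2 share all of their 630. All 6 globin entries that shared at least 90% of their exon bases were listed at 0 in every library. Over the whole table, 523 of 555 such entries (94.2%) were at 0 in every library, against 3783 of 23866 others (15.9%). The zeros are therefore no measure of hemoglobin RNA, and no fold or level is given for Hba-a1 or Hba-a2.

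Other globins and red cell genes had exons of their own. Embryonic Hba-x and Hbb-bh1 were at 0, and Hbb-y had 0 to 4 counts per library. The theta globin genes had 1 to 13 counts (Hbq1a) and 1 to 7 counts (Hbq1b). Neuroglobin (Ngb) and cytoglobin (Cygb), the oxygen-binding globins of neurons and of many other cells, were the 2 globins that passed the filter, with log2 fold changes of 0.20 ± 0.225 (SE, adjusted p = 0.639) and -0.07 ± 0.0903 (adjusted p = 0.712). Of the erythroid list, Slc4a1 (band 3) had at most 5 counts per library, Klf1 at most 7 and Gata1 at most 1. The 13 genes of the list that the table holds still summed to 304 to 337 CPM in mice labelled LPAR2-/- and 329 to 366 CPM in WT mice, nearly all from Tmcc2 (mean 287 CPM in WT mice) and Bpgm (53.2 CPM). With Alas2 these were the 3 genes of the list that passed the filter, and none was called.

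In heme synthesis, Alas1 encodes the enzyme of the first step outside red cells (chr9:106233455-106247954). It measured 69.1, 71.3 and 76.8 CPM (lowest, median, highest of 7) in mice labelled LPAR2-/- and 61.6, 64.9 and 75.2 CPM in WT mice. The ranges overlapped, with WT mice 1 and 7 at 75.2 and 71.2 CPM. Its log2 fold change was 0.12 ± 0.0471 (SE), and Alas1 did not pass the test (adjusted p = 0.144). Fech, for the enzyme of the last step (chr18:64456550-64489066), measured 72.1, 76.5 and 80.0 CPM against 69.2, 71.6 and 77.2 CPM. In all, 3 mice labelled LPAR2-/- lay above the highest WT mouse, which was WT mouse 1 again. Its log2 fold change was 0.09 ± 0.0345 (adjusted p = 0.129). Without WT mouse 1, Alas1 (log2 fold change 0.15, adjusted p = 0.0315) and Fech (0.11, adjusted p = 0.0496) both passed the threshold.

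Alas2, the erythroid form of the first enzyme (chrX:150547417-150570622), was rare, with 17 to 73 counts per library. A count of 17 has an exact 95% Poisson interval of 9.9 to 27.2, and a count of 73 one of 57.2 to 91.8, which cover counting error only. It measured 1.02, 1.64 and 3.14 CPM in mice labelled LPAR2-/- and 1.05, 1.57 and 2.10 CPM in WT mice, so that the WT range lay inside the other. The log2 fold change of 0.25 ± 0.222 (adjusted p = 0.552) was 0.07 without LPAR2-/- mouse 4, the mouse with the highest value. Across the 7 mice labelled LPAR2-/-, log2 CPM of Alas2 and the mean of 10 genes of brain endothelium gave r = 0.74 (exact two-sided permutation test, p = 0.054, adjusted over 4 relations p = 0.216) and rho = 0.82 (permutation p = 0.0341). Without the 2 mice farthest from the median of Alas2, r was 0.16 over 5 mice, and without any 1 mouse it was 0.50 to 0.83. The relation did not pass the threshold with all 7 mice, nor without any 1 mouse (permutation test, adjusted p = 0.139 to 0.474). In the 7 WT mice r was 0.42 and rho 0.54 (exact permutation p = 0.355 and 0.236, adjusted p = 0.474), and 0.22 was left for r without the 2 farthest mice.

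Abcb10 encodes a transporter of the inner mitochondrial membrane that red cell precursors need for heme synthesis and that other tissues make too (chr8:123952459-123983122, minus strand, 13 exons). It fell in mice labelled LPAR2-/-. The 7 mice measured 47.6, 44.3, 28.6, 39.3, 28.6, 32.2 and 49.2 CPM (mouse 1 to 7), and the 7 WT mice 51.7, 62.5, 67.0, 69.0, 60.4, 70.0 and 67.0 CPM. Every mouse labelled LPAR2-/- lay below every WT mouse, although mouse 7 and WT mouse 1 were only a few CPM apart in the plot of the members. With means of 38.6 ± 8.83 (SD) against 63.9 ± 6.38 CPM, the log2 fold change was -0.73 ± 0.126 (adjusted p = 0.00365), a level 0.602 times that of WT mice. The coefficient of variation was 22.9% in mice labelled LPAR2-/- and 9.98% in WT mice. Under 6 other settings the log2 fold change ranged from -0.75 to -0.71, and in 14 fits that each left out 1 mouse from -0.80 to -0.67, past the threshold each time.

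Within the mice labelled LPAR2-/-, Abcb10 took lower values in mice 3, 5 and 6 (28.6, 28.6 and 32.2 CPM) than in the other 4 (39.3 to 49.2 CPM). After removal of the genotype means, the genes most like it over the 14 mice, among 14896, were Fam89a (Pearson r = 0.84), Sart3 (0.83), Fau (0.83), Zim1 (0.82) and Tgfb2 (0.80). Fam89a alone among them lies near Abcb10 on the same chromosome (chr8:124740257-124751809). It measured 0.606, 0.632 and 0.478 CPM in LPAR2-/- mice 3, 5 and 6, 1.16 to 1.44 CPM in the other 4, and 1.47 to 2.18 CPM in WT mice. These 8 to 43 counts per library are few, and the log2 fold change of -0.83 ± 0.224 (adjusted p = 0.0347) missed the threshold without LPAR2-/- mouse 3, 5 or 6 or without any 1 of WT mice 2 to 6 (adjusted p = 0.0535 to 0.0727). Both genes were thus lowest in the same 3 mice. This restates how Fam89a was found, by the highest r among 14896 genes, and is no separate observation. These largest values of r were not tested.

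**Figure D2:**
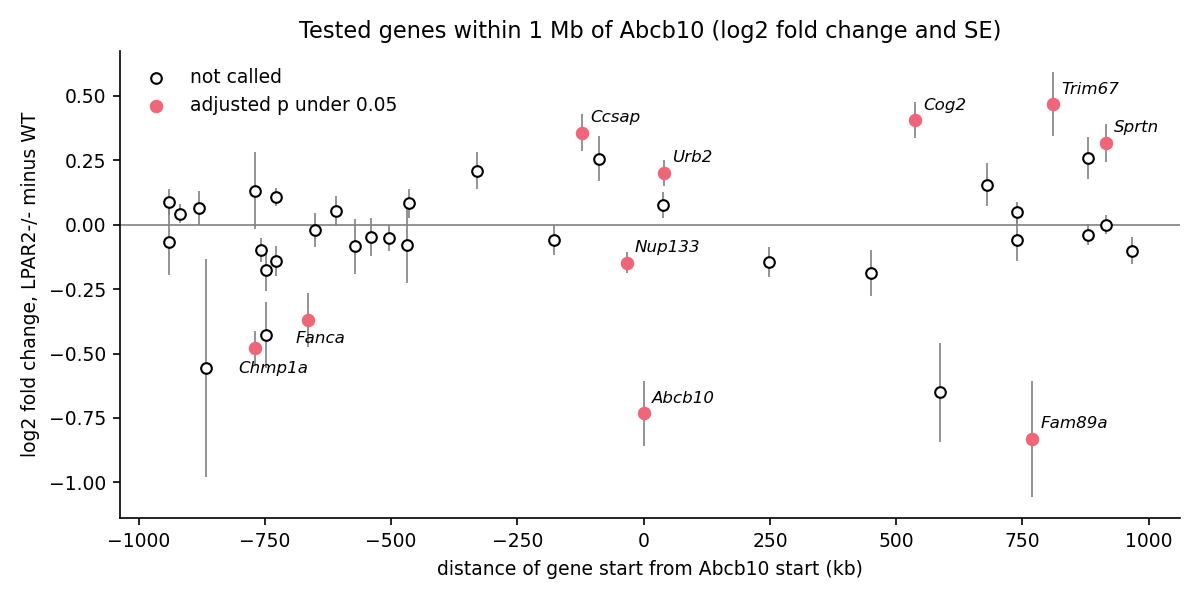
Log2 fold change (LPAR2-/- minus WT, bars are SE) of Abcb10 and the 41 tested genes within 1 Mb of it, against the distance of each gene's start from that of Abcb10 in kb. Filled points passed an adjusted p of 0.05, and they lie on both sides of 0.

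Many genes around Abcb10 were also called. Of 41 tested genes within 1 Mb to either side, 9 passed the threshold, 5 higher and 4 lower, against 6.77% of all genes. Among those called, Nup133, a nuclear pore gene, fell slightly (log2 fold change -0.15, adjusted p = 0.0329), and Ccsap (0.36, adjusted p = 0.0082) and Urb2 (0.20, adjusted p = 0.0261) rose. Not every close gene was called, as Taf5l (adjusted p = 0.403) and Acta1 (adjusted p = 0.0944) lay nearer to Abcb10 than some called genes. Farther away Chmp1a fell (-0.48, adjusted p = 0.000713), and Cog2, of the Golgi, rose (0.41, adjusted p = 0.00293). Around the 7 other counted members, 5 of 165 tested genes were called in all, and 4 of these members had no called gene within 1 Mb. A high share was not particular to Abcb10, since 19 of 58 genes were called around Lpar2 and 3 of 16 around Eif2ak2. Abcb10 lies 54.12 Mb from Lpar2 on chromosome 8, and Hmox1 lies 5.26 Mb from it. Whether linked alleles take part in the values of Abcb10 and its surroundings was not tested.

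In heme breakdown, Hmox1, for the inducible heme oxygenase (chr8:75093618-75100593), measured 5.11, 5.54 and 6.91 CPM in mice labelled LPAR2-/- and 4.20, 5.33 and 5.77 CPM in WT mice. LPAR2-/- mice 6 and 7, at 6.45 and 6.91 CPM, lay above all WT mice, and the other 5 lay within the WT range. Hmox1 did not pass the test, with a log2 difference of 0.14 ± 0.0917 (adjusted p = 0.393). Of 4 tested genes within 1 Mb of it, Rasd2 fell (-0.42, adjusted p = 0.0082). Hmox2, for the constitutive enzyme (chr16:4726361-4766249), measured 74.2, 79.6 and 83.8 CPM against 76.6, 80.3 and 84.1 CPM, a log2 fold change of -0.03 ± 0.0343 (adjusted p = 0.711). Blvrb, for biliverdin reductase B (chr7:27447978-27465981), measured 4.48, 5.89 and 6.41 CPM against 4.09, 5.85 and 6.57 CPM. Its log2 fold change of 0.05 ± 0.109 (adjusted p = 0.824) was below 0 without WT mouse 6.

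Markers of other cells were set beside Hmox1, since macrophages at the borders of the brain make heme oxygenase 1 and take up hemoglobin. All 6 tested border macrophage genes had log2 fold changes above 0 (0.26 to 0.93, median 0.77), and none passed the threshold. Their list of 7 summed to 31.4 to 68.8 CPM in mice labelled LPAR2-/- and 21.1 to 49.5 CPM in WT mice. Of 8 meningeal fibroblast genes, 7 had log2 fold changes above 0, with Lum called (0.54, adjusted p = 0.0132), and summed to 118 to 418 CPM against 91.0 to 317 CPM. All 8 microglia genes also had log2 fold changes above 0 (0.02 to 0.17, median 0.11), none called, and summed to 347 to 419 CPM against 342 to 415 CPM. The part of these cells in the values of Hmox1 was not tested across the genotypes. Within the genotypes, log2 CPM of Hmox1 and the mean of 6 border macrophage genes gave r = -0.07 and rho = 0.25 in the 7 mice labelled LPAR2-/- (exact two-sided permutation p = 0.902 and 0.595, adjusted p = 0.902). In the 7 WT mice r and rho were 0.64 and 0.64 (exact permutation p = 0.118 and 0.139, adjusted p = 0.236). Without the 2 mice farthest from the median of Hmox1, r was 0.52 and 0.33. The genes most like Hmox1 over the 14 mice, among 14896 and with genotype means removed, were Lmnb1 (r = 0.88), Top2a (0.87), Rell1 (0.84), Lsm7 (0.82) and Runx2 (0.82). As the largest values of a wide search, which were not tested, they show no relation by themselves.

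Eif2ak1 encodes HRI, which heme holds inactive (chr5:143871862-143902717 in the table's model, which begins downstream of the RefSeq start). It measured 73.6, 80.1 and 84.5 CPM in mice labelled LPAR2-/- and 80.4, 83.8 and 91.7 CPM in WT mice. Of the mice labelled LPAR2-/-, 4 lay below the lowest WT mouse, and the other 3 lay within the WT range. On the log2 scale the change was -0.10 ± 0.0409 and did not pass the test (adjusted p = 0.15).

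Levels of different genes were compared per length, as TPM (transcripts per 1000000) computed from the counts and the table's gene lengths. In WT mice the median ran from Hmox2 (181 TPM) through Eif2ak1 (99.4), Fech (76.1), Alas1 (61.7), Abcb10 (48.1), Blvrb (18.4) and Hmox1 (10.4) to Alas2 (2.47 TPM). The order was the same in mice labelled LPAR2-/-, and in neither genotype did the ranges of neighbours in the order overlap. In WT mice the lowest Fech value (74.9 TPM) and the highest Alas1 value (69.9 TPM) lay close together, and Abcb10 (36.4 to 50.3 TPM) came next. In mice labelled LPAR2-/- Abcb10, at a median of 28.7 TPM (20.6 to 35.7), stood nearer to Blvrb (18.6) than to Alas1 (68.0). Constitutive Hmox2 exceeded Hmox1 17.8 ± 1.65 times in WT mice (SD, n = 7) and 15.8 ± 1.52 times in mice labelled LPAR2-/-. Housekeeping Alas1 exceeded erythroid Alas2 26.7 ± 7.08 and 26.3 ± 9.88 times.

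**Figure D3:**
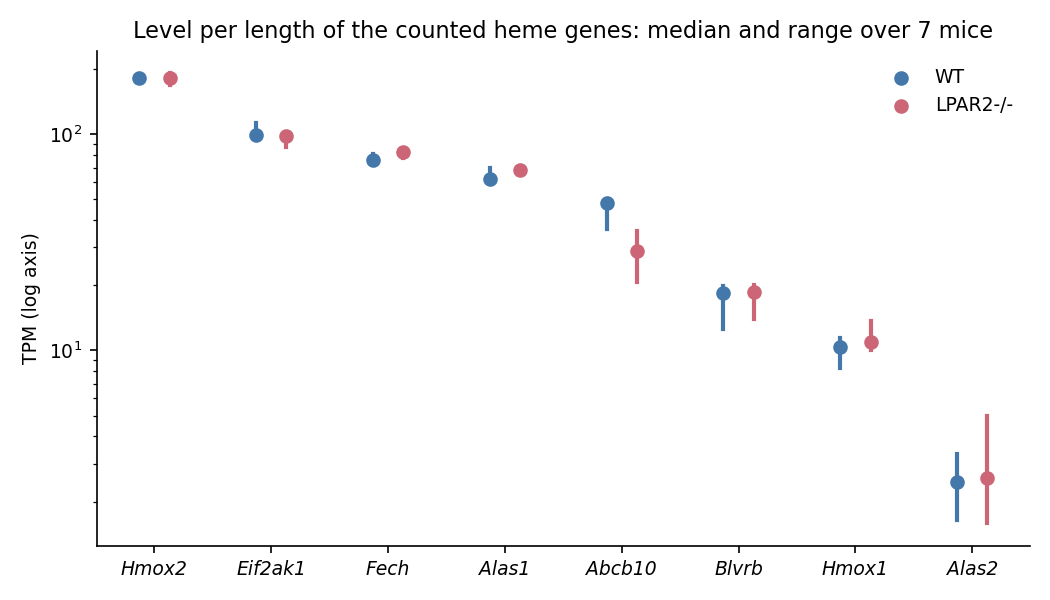
Median (point) and range over 7 mice (line) of the level per length in TPM of the 8 counted members, on a log axis. The order from Hmox2 to Alas2 is the same in both genotypes, and only Abcb10 has ranges that lie apart between them.

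The other genes of the pathway were described from lists of heme synthesis, transport, breakdown, iron handling, eIF2alpha kinases and globins. Of 44 genes that are no members and passed the filter, 2 were called, both higher, and the median log2 fold change of the 44 was 0.02, beside 6.77% called and a median of 0.0029 over all genes tested. The share called was thus no higher than that of all genes. In heme synthesis 1 of 9 tested genes was called (Alad), in transport 1 of 15 (Abcb10), among eIF2alpha kinases 1 of 4 (Eif2ak2), and none of 8 in breakdown and scavenging, 14 in iron handling or 2 globins. In iron handling, the ferroportin gene Slc40a1, for the iron exporter, had the lowest adjusted p (log2 fold change 0.22, adjusted p = 0.102), and the ferritin genes Fth1 (0.09, adjusted p = 0.438) and Ftl1 (0.13, adjusted p = 0.243) did not pass either. The hemoglobin receptor gene Cd163 measured 0.46 ± 0.236 (adjusted p = 0.259). Enzymes between ALAD and FECH lay within a narrow band, from Uros (-0.08, adjusted p = 0.289) to Ppox (0.09, adjusted p = 0.323).

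**Figure D4:**
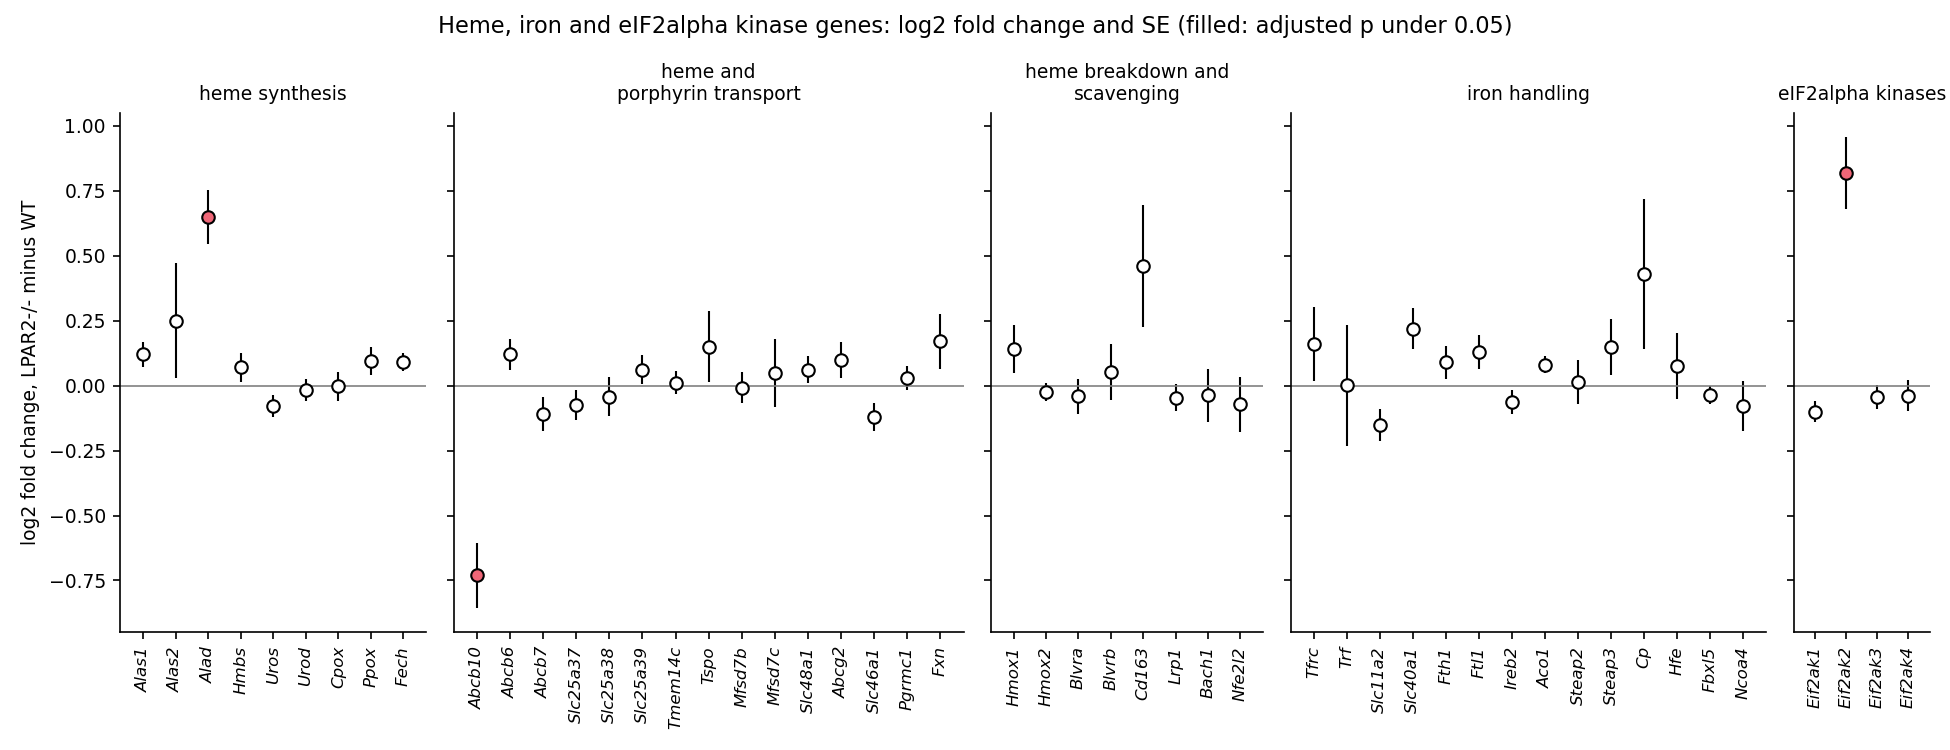
Log2 fold change, LPAR2-/- minus WT, with SE, of the tested genes of 5 lists (globins are not drawn). Filled points passed an adjusted p of 0.05: Alad at 0.65, Abcb10 at -0.73 and Eif2ak2 at 0.82.

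Alad, for the enzyme of the second step of heme synthesis (chr4:62505984-62520063), rose. WT mice measured 25, 26.3 and 29.2 CPM (lowest, median, highest). In 6 mice labelled LPAR2-/- it measured 42.0 to 48.9 CPM, and in mouse 6 25.9 CPM, within the WT range. The log2 fold change over all 14 mice was 0.65 ± 0.104 (adjusted p = 0.00224), and 0.74 without mouse 6. Singled out after their values were seen, the 2 called genes within 1 Mb of Alad, Hdhd3 and Bspry, lie beside it within 40.0 kb (chr4:62480067-62520063 for all 3). Hdhd3 measured 7.74 to 9.05 CPM in those 6 mice, 5.31 CPM in mouse 6 and 3.47 to 4.77 CPM in WT mice (log2 fold change 0.95 ± 0.111, adjusted p = 0.000106). Bspry measured 1.32 to 2.24 CPM in the 6 mice, 0.537 CPM in mouse 6 and 0.642 to 1.17 CPM in WT mice (1.00 ± 0.251, adjusted p = 0.0259). Mouse 6 was thus lowest of its group for all 3 genes. After removal of the genotype means, Pearson r with Alad over the 14 mice was 0.80 for Hdhd3 and 0.79 for Bspry. Mouse 6, far below its group for Alad, weighs on both values, and r without it was not computed. They are therefore no sign of shared variation across all 14 mice. Bspry had 9 to 52 counts per library, and its adjusted p was 0.0534 to 0.0619 without LPAR2-/- mouse 1 or 4 or WT mouse 2, 5 or 6.

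**Figure D5:**
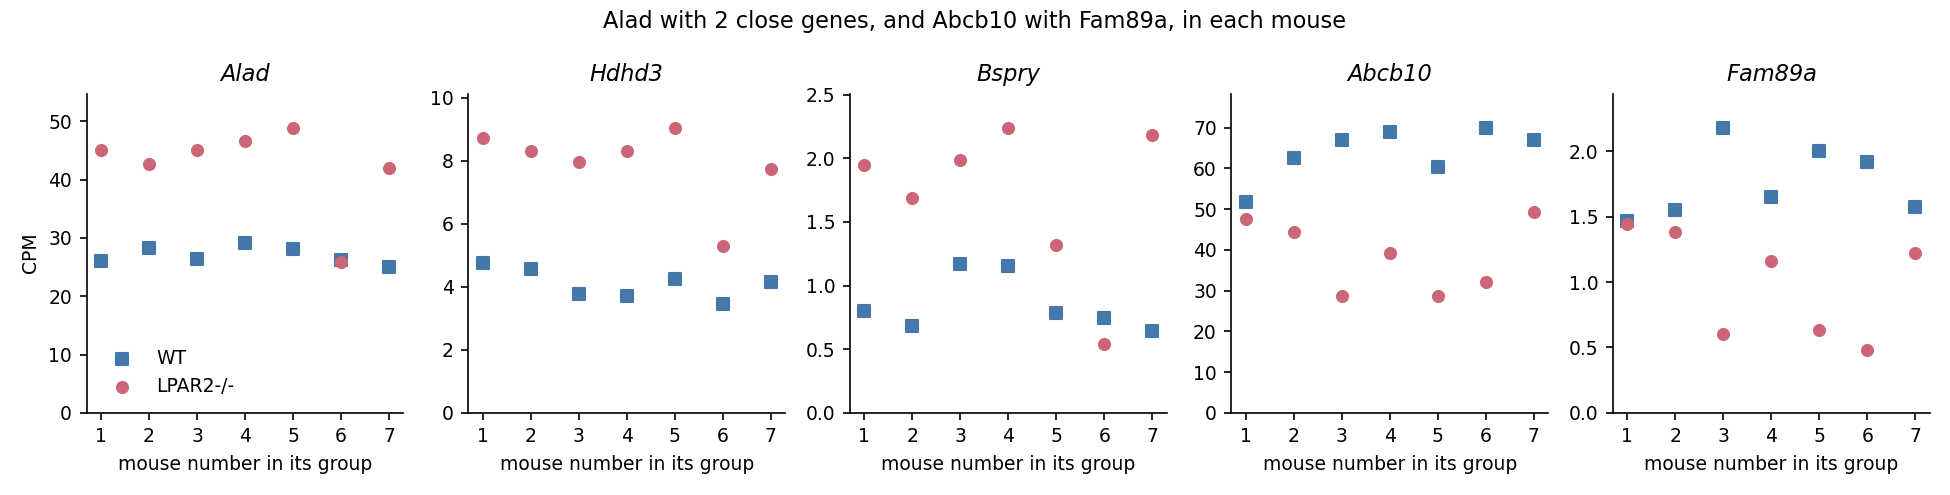
CPM of Alad, Hdhd3, Bspry, Abcb10 and Fam89a in each mouse (horizontal axis: mouse number within its group, vertical axes from 0; squares WT, circles LPAR2-/-). LPAR2-/- mouse 6 has the lowest value of its group for Alad (25.9 CPM), Hdhd3 and Bspry, and LPAR2-/- mice 3, 5 and 6 are lowest for Abcb10 and Fam89a.

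Eif2ak2 encodes PKR, the eIF2alpha kinase that double-stranded RNA activates (chr17:78852550-78882572). It rose, with 3.78, 5.43 and 7.41 CPM in mice labelled LPAR2-/- and 2.73, 3.21 and 3.86 CPM in WT mice. Of the 7 mice labelled LPAR2-/-, 6 lay above the highest WT mouse, and mouse 7 lay just below it. The log2 fold change was 0.82 ± 0.139 (adjusted p = 0.00273). Per length, Eif2ak1 exceeded Eif2ak2 45.1 ± 6.82 times in WT mice and 24.7 ± 6.40 times in mice labelled LPAR2-/-. The 2 other kinases, Eif2ak3 (-0.04, adjusted p = 0.62) and Eif2ak4 (-0.04, adjusted p = 0.748), did not pass the test.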

How the data were processed

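RNA of 14 mouse hippocampi was sequenced, and groups were taken from the labels. Per the file headers and the submitters' processing notes, reads were trimmed (cutadapt 1.18) and aligned (STAR, mm10), and the authors deposited counts per gene on exons, made with featureCounts 1.6.3 for the reverse strand, without reads on several genes or places and without normalization. A second deposited table of normalized values was not used here. Here, counts were normalized by TMM, filtered with filterByExpr and tested with edgeR 4.0.16 (robust quasi-likelihood F test, R 4.3.3), 7 mice labelled LPAR2-/- against 7 WT mice, Benjamini-Hochberg adjusted over all 14897 genes, threshold 0.05. CPM were used for values per mouse and log2 CPM (prior count 2) for relations between mice. The members and the lists were chosen with earlier results of these data known. The rule named the 10 members, Lpar2, called genes of each list (at most 6) and the 5 genes most like Abcb10 and Hmox1. Genes outside it (neighbours, and list genes that were not called) were named after their values were seen. Planned relations that needed counts of alpha or beta globin could not be computed, and that of Alas2 with endothelium was added after the data were seen. Libraries ranged from 15434620 to 23258949 counts, and intervals cover counting error only. The labels do not say whether mice shared litters, and p-values weigh the difference of the genotypes against the spread between these mice only. Alternatives were DESeq2 1.42.0, other size factors, upper quartile scaling, filters of 0 or of 10 counts per library, the mouse number as a block, each mouse left out, and other windows and prior counts. The procedures were tested on simulated data.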

Additional observations from a re-analysis of the deposited data

Results flagged for a closer look

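In 28 groups of 7 mice (16 named genes in 2 genotypes, without those at 0), the lowest or highest mouse was compared with the rest by Dixon's gap ratio, which chance exceeds in about 1 in 20 groups. Of these, 2 values were flagged, a number near that rate. LPAR2-/- mouse 6 had 25.9 CPM of Alad, with the other 6 mice of its group at 42.0 to 48.9 CPM (gap 0.701 of the range). The same mouse had 5.31 CPM of Hdhd3, a gene beside Alad, with the others at 7.74 to 9.05 CPM (gap 0.65 of the range). Hdhd3 was named after its values were seen, so its flag is not independent of that of Alad. The cause of these values was not tested.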

How the results depend on the processing

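Abcb10 kept its direction and its call under all alternatives run, with adjusted p from 6.5e-07 to 0.0205 under 6 other settings and from 0.00258 to 0.00992 with each mouse left out. No other member passed the threshold under those 6 settings. The count of called members that were higher was 0 to 2 with each mouse left out, the 2 being Alas1 and Fech without WT mouse 1, and that of lower members was 1 each time. When the mouse number was added as a replicate block, 314 genes were called higher and 272 lower, and Abcb10 had an adjusted p of 0.0205. Correlations of same-numbered mice ran from -0.334 to 0.311, with 3 of 7 above 0.1. They were not set against those of other pairs, so they cannot decide whether the numbers pair the mice. Of the members, Alad, Eif2ak2, Hdhd3, Bspry, Fam89a and Lpar2, only Fam89a lost its call under the block (adjusted p = 0.0993). Leaving out single mice gave 275 to 660 genes called higher and 292 to 725 called lower, lowest without WT mouse 2 and highest without WT mouse 1. At least 1 of these counts shrank by more than 1.5 times without LPAR2-/- mouse 1 or 5 or WT mouse 2, 4, 5 or 6. The log2 fold change of Blvrb was -0.0072 without WT mouse 6. The correlation of Hmox1 with border macrophage genes in mice labelled LPAR2-/- ranged from -0.29 to 0.14 with each mouse left out, above 0 without mouse 5 (0.09) and without mouse 7 (0.14). The other 3 correlations kept their sign (0.50 to 0.83, 0.41 to 0.81 and 0.12 to 0.65). Around Abcb10, 3 of 13 tested genes were called within 0.5 Mb and 15 of 65 within 2 Mb. Within 2 Mb, called genes also lay near Alas1 (5), Eif2ak1 (4), Fech (2), Blvrb (2), Alas2 (1) and Hmox1 (1), which left Hmox2 without one. Scaling by DESeq2 size factors cannot alter the order of levels within a mouse, and summing Hba-a1 and Hba-a2 adds 0 to 0, so that neither bears on stability. The causes of these shifts were not tested. Depth limits Alas2, Bspry and Fam89a, with at most 73, 52 and 43 counts per library.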
